A study of Mus musculus with 13 samples.

Results

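The cluster of microRNA (miRNA) genes between miR-379 and miR-410 is a tandem array in the imprinted Dlk1-Dio3 domain of mouse chromosome 12. Its members here were the probe sets whose mouse miRNA name belongs to 1 of 37 precursors of the cluster, in any mature form that the array does not name as a star (minor) arm. This gave 43 of the 717 mature mouse miRNA probe sets, and 9 star arms of the same precursors and 24 probe sets of other miRNAs of the domain were kept apart for comparison. Levels were measured in whole aortas of male C57/BL6 mice on 13 arrays read in 1 colour (biotin label). The aged knockout group (n = 3 arrays) came from mice of 12 months with the mineralocorticoid receptor (MR), the receptor for aldosterone, deleted in smooth muscle cells, and the aged MR-intact group (n = 4) from mice of the same age that keep it, labelled wild type. The young knockout group (n = 3) and the young MR-intact group (n = 3) had the same genotypes at 3 to 4 months. The study asked how vascular miRNAs alter with age and whether the smooth muscle receptor takes part. The promoter that drove the deletion is not given in the sources used here, and the MR transcript is not on a miRNA array.

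An imprinted gene is read from the copy of 1 parent only. The miRNAs of this cluster are read from the maternal copy, as parts of long non-coding transcripts that also include Meg3, Rian and Mirg, and are cut out as hairpins from which the mature strands are released. They are best known from the embryo, the placenta and the brain, and in mice that lack the cluster newborns adapt poorly to fasting at birth. In mouse hindlimb ischaemia, blocking the members miR-329, miR-487b, miR-494 or miR-495 improved the growth of new vessels. A miRNA recognises its target messages mainly through its seed, the bases from position 2 to position 8.

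In RefSeq (GRCm38.p6) the 37 precursors lie on the plus strand at chr12:109709060-109743795, a span of 34.7 kb, and the annotated non-coding gene Mirg at chr12:109734981-109749458 covers 9 of them. Mature sequences from RefSeq were matched to 40 of the 43 members, and their 40 seeds were all different, so no 2 of these members share one. The sequences below are those of members that passed the test for a change with age averaged over genotypes, written 5′ to 3′ with the seed in capitals. Among them miR-410 was at background on all arrays. Of the other members that passed, miR-485 and miR-487b had no matched sequence, and miR-299 is printed further below within its precursor. Array names without an arm were matched to the arm that the miRNA catalogue gives under that name, and the array's own probe sequences were not used here.
miR-541: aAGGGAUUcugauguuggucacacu
miR-382: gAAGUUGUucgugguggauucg
miR-379: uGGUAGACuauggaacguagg
miR-329: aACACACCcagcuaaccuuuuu
miR-134: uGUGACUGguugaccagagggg
miR-154: uAGGUUAUccguguugccuucg
miR-411: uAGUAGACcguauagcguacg
miR-409-3p: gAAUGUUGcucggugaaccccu
miR-300: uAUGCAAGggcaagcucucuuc
miR-410: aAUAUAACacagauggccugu

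Although no seed is shared, some members resemble each other in full length. miR-379 and miR-411, printed above, differ at 7 positions. The member miR-381 is shown because it differs from miR-300 at 3 positions only, and signal shared between such close sequences cannot be told apart on an array.
miR-381: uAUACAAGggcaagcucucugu

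All values are the deposited log2 values of a probe set on an array, and changes are differences of log2 values, aged minus young or knockout minus MR-intact. A probe set was counted as above background on an array where it exceeded the 99th percentile of that array's precursor probe sets, a level between 1.79 and 2.29 over the 13 arrays. Tests come from limma, fitted to all 717 mature probe sets with 4 group means, and a change was called at a Benjamini-Hochberg adjusted p under 0.05 over all of them. The labels do not tie arrays to separate mice, and p-values therefore speak of the spread between samples only. They give neither a batch nor a scan date, and so an effect of age cannot be told apart from a difference in how young and aged arrays were handled. Aged arrays had 91 to 168 mature probe sets above background and young arrays 183 to 269. On 3 arrays many levels stood apart from the rest of their group. These were aged MR-intact replicate 2, which had the most probe sets above background of its group, and young knockout replicate 3 and aged knockout replicate 2, which had the fewest of theirs. Changes with age averaged over genotypes are given below with and without these 3 arrays. The labels title each array with a number of its own and give no replicate number, so the replicate numbers here are names given in order of deposit.

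Most cluster members were at background on every array, and those that exceeded it did so mainly in young aortas. The numbers of members above background were 1, 1 and 2 on the aged knockout arrays and 1, 4, 2 and 0 on the aged MR-intact arrays. They were 10, 12 and 6 on the young knockout arrays and 11, 11 and 11 on the young MR-intact arrays. Each aged array thus had fewer than each young array, and the nearest pair was replicate 2 of the aged MR-intact group with replicate 3 of the young knockout group. With the background at the 95th percentile these 2 arrays had 9 members each, and the ages no longer separated fully. Members made up between 0% and 2.38% of the probe sets above background on an aged array, and between 3.28% and 4.82% on a young array. They are 43 of all 717 mature probe sets. At a young mean of 8 or more lay 0 members and 67 other probe sets, of which 17.9% were called lower with age. At young means of 2 to 4, 4 to 6 and 6 to 8, 5 of 5, 1 of 2 and 3 of 3 members were called lower. Of the other probe sets there, 57 of 68, 38 of 49 and 18 of 37 were. The shares per array are thus a description and support nothing about the cluster. In all, 13 of the 43 members were above background on at least 1 array, and these are called measurable below. RNA of a whole vessel wall was measured, so fewer cells that make a miRNA and less of it per cell cannot be told apart.

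**Figure D1:**
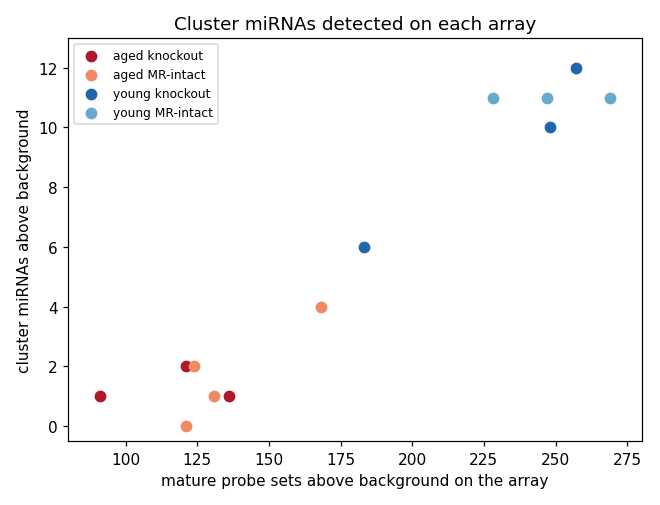
Number of cluster members above background (y axis) against the number of all mature probe sets above background (x axis), 1 point per array, coloured by group. Aged arrays lie at the lower left, with at most 4 members, and young arrays at the upper right, with 6 to 12.

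miR-541, miR-382 and miR-379 had the 3 largest estimated changes with age among the members called. miR-541 was 1.02, 0.50 and 1.04 in aged knockout aortas and 1.28, 5.42, 1.43 and 1.27 in aged MR-intact aortas, against 5.99, 6.52 and 6.02 in young knockout and 6.55, 6.61 and 6.71 in young MR-intact aortas. Among the aged arrays only the MR-intact replicate 2 kept a level above background, and it too lay below all 6 young arrays. Averaged over genotypes, the fitted value fell by 4.80 on the log2 scale (SE 0.62, limma adjusted p = 0.000357), a size that depends on background because 6 of the 7 aged values lie there.

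miR-382 was 1.67, 0.60 and 1.13 in aged knockout aortas and 1.23, 3.69, 1.08 and 1.57 in aged MR-intact aortas, against 5.81, 6.16 and 6.19 in young knockout and 5.91, 6.46 and 6.11 in young MR-intact aortas. The age classes did not overlap, and the same MR-intact array was the highest of the aged ones. The fitted change was -4.59 (SE 0.40, limma adjusted p = 2.6e-05), with 6 of the 7 aged values again at background. For miR-379, the first precursor of the cluster, aged knockout aortas had 3.09, 1.35 and 1.35 and aged MR-intact aortas 4.01, 6.05, 2.52 and 1.10, while young knockout aortas had 6.70, 6.91 and 5.35 and young MR-intact aortas 6.64, 7.10 and 6.98. Here 4 of the 7 aged arrays stayed above background, and aged MR-intact replicate 2 exceeded young knockout replicate 3, so the age classes overlapped. The change was -3.94 log2 units (SE 0.71, limma adjusted p = 0.00234), and it lay between -4.38 and -3.55 when each array was left out in turn.

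A second set of members, miR-329, miR-134, miR-154 and miR-485, was above background on 5 or 6 of the 6 young arrays and on no aged one. In neurons of rodents miR-134 restrains the growth of dendritic spines and miR-329 is induced by activity together with it. miR-329 was 1.16, 1.15 and 0.97 in aged knockout aortas and 0.78, 2.02, 0.39 and 1.21 in aged MR-intact aortas, against 4.37, 4.76 and 4.09 in young knockout and 4.59, 4.69 and 4.71 in young MR-intact aortas. It had the smallest p of the members (limma adjusted p = 4.3e-06), and its level in aged aortas was at least 5.39-fold lower. Such a bound compares the mean of the young arrays with a floor for each aged array, the smallest mature value there that exceeds background, or the member's own value where that is higher, because the aged values themselves lie at background.

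miR-134 was 1.27, 0.94 and 1.0 in aged knockout aortas and 1.45, 1.76, 1.22 and 0.95 in aged MR-intact aortas, against 3.72, 4.39 and 1.14 in young knockout and 3.88, 4.05 and 4.14 in young MR-intact aortas. Young knockout replicate 3 lay among the aged values and the other young arrays well above them. The aged level was at least 2.73-fold lower (limma adjusted p = 0.00274). miR-154 was 0.73, 0.60 and 0.69 in aged knockout aortas and 0.80, 1.08, 0.79 and 0.84 in aged MR-intact aortas, against 2.34, 3.19 and 1.18 in young knockout and 2.95, 3.47 and 4.17 in young MR-intact aortas. The age classes did not overlap, and the level was at least 1.72-fold lower in aged aortas (limma adjusted p = 0.000644).

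miR-485, which in rodent neurons takes part in adjusting synapse strength, was 0.78, 0.97 and 0.67 in aged knockout aortas and 0.82, 1.66, 0.95 and 0.70 in aged MR-intact aortas. It was 2.46, 2.95 and 1.67 in young knockout and 3.51, 2.08 and 2.94 in young MR-intact aortas, so that the lowest young array only just cleared the highest aged one. The aged level was at least 1.41-fold lower (limma adjusted p = 0.00139).

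Another 3 members passed the test with overlapping age classes. miR-411 was 0.67, 1.15 and 1.44 in aged knockout aortas and 1.31, 1.32, 1.46 and 1.09 in aged MR-intact aortas, against 3.37, 2.57 and 1.25 in young knockout and 3.04, 1.51 and 3.53 in young MR-intact aortas. It was above background on 4 young arrays and no aged one, and was at least 1.36-fold lower in aged aortas (limma adjusted p = 0.0234). miR-409-3p, 1 of the 2 strands of its precursor on the array, was 1.64, 1.18 and 2.25 in aged knockout aortas and 0.96, 1.91, 1.08 and 0.88 in aged MR-intact aortas. Its young values were 1.87, 3.34 and 2.10 in knockout and 2.71, 2.32 and 3.80 in MR-intact aortas, and 1 aged knockout and 1 aged MR-intact array lay above the lowest of them. The fitted change was -1.24 (SE 0.33, limma adjusted p = 0.0191), with 6 of the 7 aged values at background.

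miR-300 was 1.17, 0.85 and 0.71 in aged knockout aortas and 0.68, 0.52, 0.98 and 0.87 in aged MR-intact aortas, against 2.11, 2.89 and 0.87 in young knockout and 1.02, 2.53 and 2.57 in young MR-intact aortas. Both a young knockout and a young MR-intact array lay among the aged values. It passed the test (change -1.16, SE 0.34, limma adjusted p = 0.0287), but its young mean lay too near background for a bound on the fold.

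**Figure D2:**
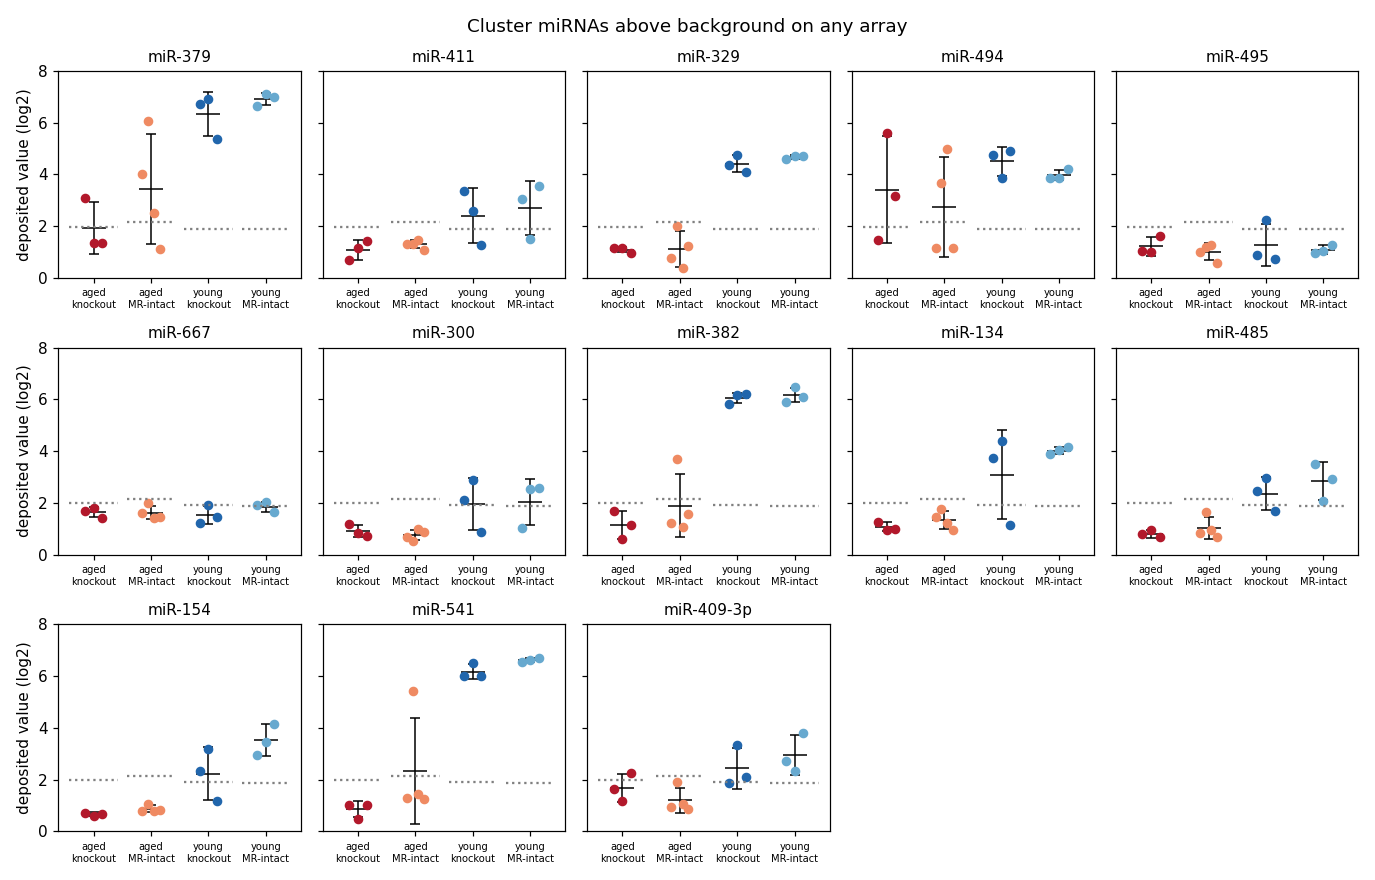
Deposited log2 values of the 13 members above background on any array, 1 panel each and 1 point per array, with the mean and SD of each group (black) and the group's mean background (dotted). In miR-541, miR-382 and miR-329 the aged arrays lie below all young ones, while miR-494 spans a wide range within both aged groups.

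Of the 13 measurable members, 3 did not pass the test. miR-494 was 1.45, 5.58 and 3.18 in aged knockout aortas and 1.15, 3.66, 4.99 and 1.14 in aged MR-intact aortas, against 4.76, 3.85 and 4.90 in young knockout and 3.85, 3.85 and 4.19 in young MR-intact aortas. The aged arrays lay both above and below the whole young range, and the change of -1.16 (SE 0.77) had a limma adjusted p of 0.317. The highest aged value belonged to aged knockout replicate 2, the array with the fewest probe sets above background. miR-495 exceeded background only on young knockout replicate 2, at 2.22 (change -0.07, adjusted p = 0.901). miR-667 did so only on 2 young MR-intact arrays, at 1.90 and 2.02 (change -0.06, adjusted p = 0.823).

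The other 30 members were never above background, with values between 0.28 and 1.84 over all arrays. They were miR-299, miR-380-3p, miR-380-5p, miR-1197, miR-323-3p, miR-323-5p, miR-758, miR-679, miR-1193, miR-666-3p, miR-666-5p, miR-543, miR-376a, miR-376b, miR-376c, miR-654-3p, miR-654-5p, miR-381, miR-487b, miR-539, miR-544, miR-668, miR-453, miR-496, miR-377, miR-409-5p, miR-412, miR-369-3p, miR-369-5p and miR-410. Among them the fit called miR-487b (-0.72, limma adjusted p = 0.0111) and miR-299 (-0.49, adjusted p = 0.0329) lower and miR-410 higher (0.56, adjusted p = 0.0202) in aged aortas. All 7 aged values of miR-410 lay above all 6 young ones, as did those of 2 of all 717 probe sets (0.279%). These values all lie at background, so no change in level is given for them.

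Counted over all 43 members, 12 were called lower with age, or 27.9%, beside 22.3% of all 717 mature probe sets. The 1 member called higher compares with 2.09% of all. In 5 members the 7 aged values were all lower than the 6 young ones, miR-541, miR-382, miR-329, miR-485 and miR-154. Of all probe sets, 8.79% had that pattern. The share of the cluster called lower was thus near that of the whole array. As a description, the 13 measurable members had a median fitted change of -1.68, beside -1.16 over all 307 mature probe sets above background on any array. Of the 13, 8 exceeded background on young arrays only, so this selection itself favours falls, and the median supports nothing about the cluster. The median over all 43 members was -0.03 and that over all 717 was -0.07.

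Within each genotype the same members led. In MR-intact aortas 8 members (18.6%) were called lower with age and 0 higher, beside 13.7% and 1.26% of all probe sets. In knockout aortas 6 members (14%) were called lower and 0 higher, beside 9.9% and 1.12% of all. miR-379, miR-541, miR-382, miR-329, miR-485 and miR-154 were called in both genotypes, and miR-134 and miR-409-3p in MR-intact aortas.

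In knockout aortas miR-541 was at least 17.4-fold lower in the aged group (limma adjusted p = 0.00495) and miR-382 at least 16-fold (adjusted p = 0.000531), since all 3 aged arrays were at background. In MR-intact aortas, where aged replicate 2 was above background, their changes were -4.27 for miR-541 (SE 0.85, adjusted p = 0.00964) and -4.27 for miR-382 (SE 0.54, adjusted p = 0.000919). miR-379 changed by -4.39 in knockout aortas (SE 1.03, adjusted p = 0.0237) and by -3.49 in MR-intact aortas (SE 0.97, adjusted p = 0.0351). It exceeded background on 1 of the 3 aged knockout and 3 of the 4 aged MR-intact arrays, so these sizes depend partly on background. miR-329 was at least 5.11-fold lower with age in knockout aortas (adjusted p = 0.000274) and at least 5.69-fold lower in MR-intact aortas (adjusted p = 7e-05).

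The count in knockout aortas depended on single arrays. It was 11 without young knockout replicate 3, where 17.2% of all probe sets were called lower. It was 3 (miR-541, miR-382 and miR-329) without young knockout replicate 1 or 2 or without aged knockout replicate 2 or 3, where 3.35% to 3.91% of all were. In MR-intact aortas it was 5 without young MR-intact replicate 3, beside 5.58% of all. A change with age that passed in 1 genotype and not in the other was not shown to differ. In the test of the interaction, which subtracts the change of MR-intact aortas with age from that of knockout aortas, limma called 0 of the 43 members and 0% of all 717 probe sets. Unadjusted p-values were under 0.05 for 0 members and for 28 of all probe sets. The 3 smallest p-values among members belonged to miR-154 (difference 1.09, SE 0.59, limma adjusted p = 0.989), miR-409-3p (0.99, SE 0.67, adjusted p = 0.989) and miR-376a, which was at background throughout.

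No member passed the test for deletion of the receptor in smooth muscle at either age. In aged aortas limma called 0 members for knockout against MR-intact, beside 0.139% of all probe sets, and unadjusted p-values were under 0.05 for 0 members and for 48 of all. The smallest p among measurable members was that of miR-541, with a difference of -1.50 (SE 0.85, limma adjusted p = 0.787). miR-379 followed with -1.49 (SE 0.97, limma adjusted p = 0.793), a size that depends partly on background, which only 1 aged knockout array exceeded. For miR-541 all aged arrays but MR-intact replicate 2 were at background, so without that array no difference in level is given. For miR-379 the difference was -0.61 without aged MR-intact replicate 2 (adjusted p = 0.953) and -2.26 without aged MR-intact replicate 4 (adjusted p = 0.655), the smallest and the largest size when single arrays were left out.

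In young aortas limma called 0 members and 0% of all probe sets, and unadjusted p-values were under 0.05 for 1 member and for 17 of all. That member was miR-154, at 2.34, 3.19 and 1.18 in young knockout and 2.95, 3.47 and 4.17 in young MR-intact aortas (difference -1.29, SE 0.43, limma adjusted p = 1). Its difference was -0.77 without young knockout replicate 3 and -1.77 without young knockout replicate 2. These were the smallest and the largest size when single arrays were left out, and neither passed the test. With all arrays, the standard errors of the differences named for knockout against MR-intact, 0.43 to 0.97, set the size of difference that arrays in these numbers could show.

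The 3 arrays that stood apart did so in members and in other probe sets, but many of the members' ranks lie at background. Aged MR-intact replicate 2 was the highest array of its group in 9 of the 13 measurable members (69.2%) and in 147 of all 307 measurable probe sets (47.9%). Of these 9 members only miR-379, miR-382 and miR-541 exceeded background on that array. Young knockout replicate 3 was the lowest of its group in 8 of 13 members (61.5%) and 214 of 307 probe sets (69.7%), and aged knockout replicate 2 in 6 of 13 (46.2%) and 161 of 307 (52.4%). Those 6 members were all at background on aged knockout replicate 2. Its only member above background, miR-494 at 5.58, was the highest of the group. Without these 3 arrays 13 members (30.2%) were called lower and 1 higher with age, beside 186 (25.9%) lower and 23 higher of all 717, and the median change of the measurable members was -2.0.

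The size of the falls depended on how the arrays were scaled to each other. With quantile normalization repeated over the mature probe sets, 5 members were called lower with age averaged over genotypes, beside 5.72% of all probe sets. They were miR-541, miR-382, miR-329, miR-154 and miR-485, the 5 whose age classes did not overlap. miR-379 kept its direction with a change of -2.18 (limma adjusted p = 0.0533), miR-409-3p turned to 0.08, and miR-494 to 1.21. miR-667 was called higher under this scaling (1.60, adjusted p = 0.00949), beside 3.91% of all, although it exceeded background on only 2 arrays, both young. The median change of the 13 members became -0.83, beside -0.30 over all measurable probe sets.

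With the number of mature probe sets above background on each array as a covariate, limma called 0 members, and 0.279% of all probe sets, with age. That number was higher on each young array than on each aged one, so such a fit has little room to tell it from age. In it miR-382 had a change of -3.14 (SE 0.99, adjusted p = 0.883), miR-329 of -2.38 (SE 0.54, adjusted p = 0.304) and miR-379 of -0.03 (SE 1.45).

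**Figure D3:**
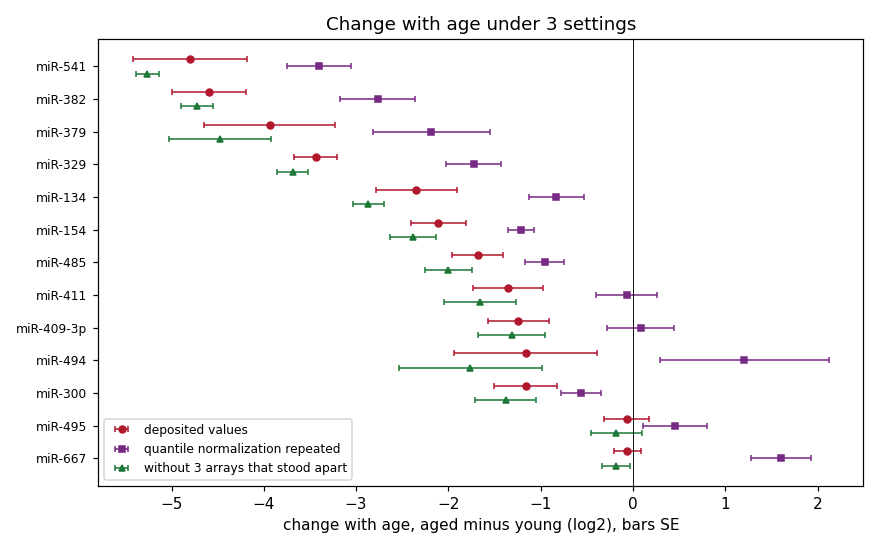
Change with age averaged over genotypes (log2, aged minus young, bars SE) of the 13 measurable members with the deposited values (circles), with quantile normalization repeated (squares) and without the 3 arrays that stood apart (triangles). Repeating the normalization moves all members to the right, and miR-409-3p, miR-494, miR-495 and miR-667 pass 0.

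Along the chromosome, measurable members were spread widely, with unmeasured ones between them. None lay between miR-300, 15.3 kb along, and miR-382, 24.7 kb along the cluster. miR-379 lies at its start, miR-411 1.12 kb and miR-329 4.42 kb downstream, miR-382 and miR-134 24.7 kb and 25.1 kb downstream, and miR-541 33.3 kb downstream, 1.31 kb before miR-410. Of the 9 precursors inside the annotated Mirg gene, 3 gave a measurable member. Members with a sequence and a measurable level had a median GC content of 48.8% (36.4% to 65.2%, 12 members), and those never above background had 45.5% (23.8% to 72.7%, 28 members). By GC content, 1 of 7 members below 40%, 5 of 19 between 40% and 50% and 6 of 14 at 50% or more were measurable.

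**Figure D4:**
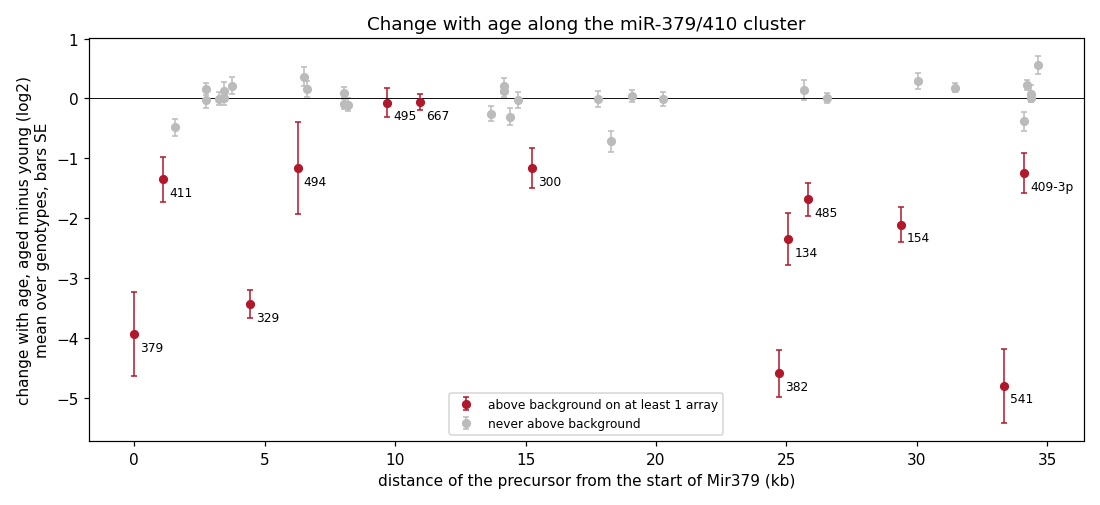
Change with age averaged over genotypes (log2, aged minus young, bars SE) against the distance of each member's precursor from the start of Mir379 (kb). Members above background on at least 1 array are red and named, and reach -4.80 at miR-541, while grey members, never above background, lie near 0.

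The array also carries 44 probe sets for the hairpins of the cluster, and 0 of them exceeded background on any array, with values from 0.38 to 1.70. Over the whole array 35 of 690 hairpin probe sets did so. Background is itself set from the hairpin probe sets, so few can exceed it, and these counts do not say whether the precursors were present.

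Among the 9 star arms 3 were measurable, and 2 of those 3 passed the test as lower with age. The 2 made up 22.2% of the 9 star arms, near the 22.3% called lower among all 717 mature probe sets. Among the 307 measurable probe sets 49.5% were called lower, and 3 star arms are too few to compare with that share. The star arm of miR-299 was 0.95, 1.03 and 1.41 in aged knockout aortas and 1.25, 1.42, 0.95 and 1.09 in aged MR-intact aortas, against 2.53, 3.58 and 1.78 in young knockout and 2.80, 2.94 and 3.75 in young MR-intact aortas. The age classes did not overlap, and its level was at least 1.73-fold lower in aged aortas (limma adjusted p = 0.00119), while the member miR-299 was at background on all 13 arrays. The Mir299a precursor (chr12:109710638-109710700, plus strand, GRCm38.p6) is printed with both mature arms in capitals, because the arm named a star is the one with a measurable level. Which arm the array means by each of these names was not settled.
Mir299a: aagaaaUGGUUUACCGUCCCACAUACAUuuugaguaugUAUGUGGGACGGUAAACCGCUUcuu

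The star arm of miR-411 was called lower (adjusted p = 0.0192), above background on 3 young arrays and no aged one, and too near background for a bound on the fold. That of miR-376a was called higher (0.43, adjusted p = 0.00963) at background on all arrays. That of miR-485 exceeded background on aged knockout replicate 2 only, at 2.41, and was not called (0.29, adjusted p = 0.445).

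Of the 24 probe sets of other miRNAs of the domain, 7 were above background on any array, and 6 of the 24 (25%) were called lower with age, near the 22.3% of all probe sets, and 0 higher. Of the 6, miR-665 was at background throughout. miR-127, which lies antisense to the paternally read gene Rtl1, was 3.74, 1.15 and 1.39 in aged knockout aortas and 1.96, 5.69, 1.14 and 1.18 in aged MR-intact aortas. It was 7.15, 7.65 and 7.35 in young knockout and 7.14, 7.31 and 7.5 in young MR-intact aortas, so that the age classes did not overlap and aged MR-intact replicate 2 was again the highest aged array. The fitted change was -5.06 (SE 0.74, limma adjusted p = 0.000741), with 5 of the 7 aged values at background. miR-433, also antisense to Rtl1, was at least 2.21-fold lower (adjusted p = 0.000471), miR-337-5p at least 2.83-fold lower (adjusted p = 0.00134), and miR-434-3p, above background on 1 aged array, had a fitted change of -2.21 (SE 0.37, adjusted p = 0.00153).

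Markers of several cell types that a dissected aorta can hold were called lower with age. The lists for endothelium and erythroid cells, with 0 called, each had only 1 marker above background on any array. Over the whole array 22.3% of all 717 mature probe sets and 49.5% of the 307 measurable ones were called lower. miR-143 and miR-145, abundant in smooth muscle, were above background on all arrays, and the log2 of their summed signal was 12.85 to 12.97 in aged knockout, 12.88 to 13.16 in aged MR-intact, 13.07 to 13.7 in young knockout and 13.41 to 13.78 in young MR-intact aortas, with both called lower with age. Of the 7 striated muscle markers 4 were above background on any array and 4 were called lower. Their summed log2 signal was 3.80 to 4.13 in aged knockout, 4.10 to 5.60 in aged MR-intact, 7.37 to 8.01 in young knockout and 7.32 to 8.47 in young MR-intact aortas, and miR-208a, miR-208b and miR-499 were at background throughout.

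Of the 8 neuronal markers, miR-124, miR-9, miR-129-5p, miR-137, miR-153 and miR-219 were at background on all 13 arrays. The list's other 2 were called lower with age, and its summed log2 signal was 3.92 to 4.05 in aged knockout, 3.77 to 4.09 in aged MR-intact, 3.98 to 5.31 in young knockout and 4.72 to 5.23 in young MR-intact aortas. Called lower were also 3 of 6 leukocyte markers (4 above background, miR-142-3p and miR-142-5p at background throughout), 2 of 3 liver markers (3 above background) and 1 of 7 epithelial markers (2 above background). Beside the shares over all probe sets given above, counts from lists this short are a description only. Of the 2 endothelial and the 2 erythroid markers 0 were called, and miR-126-5p and miR-144 were at background throughout. The leukocyte list had a summed log2 signal of 5.79 to 9.35 in aged knockout, 4.29 to 8.35 in aged MR-intact, 8.60 to 8.85 in young knockout and 8.56 to 8.89 in young MR-intact aortas. The liver list had 3.61 to 8.44 in aged knockout, 5.67 to 9.00 in aged MR-intact, 8.29 to 9.41 in young knockout and 7.83 to 9.02 in young MR-intact aortas. For the epithelial list the range was 4.5 to 6.78 in aged knockout, 3.82 to 7.12 in aged MR-intact, 6.86 to 7.27 in young knockout and 7.08 to 7.19 in young MR-intact aortas. Of the lists given here, only the striated muscle list did not overlap between the ages. The part of the cell types behind these markers in the falls of single cluster members was not tested.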

How the data were processed

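The deposited table holds log2 values of 1412 probe sets on 13 arrays, per the labels one aortic RNA sample each. Per the submitters' processing notes, the authors used RMA, affy and limma, with no version named. Values run from 0.07 to 14.38, so the unstated log base was read as 2. Array design and annotation, and any filter, are not named in the labels. The members, lists and tests were chosen with earlier results of these data known. A limma model (version 3.58.1, R 4.3.3; lmFit, eBayes without trend, not robust) was fitted to the 717 mature probe sets and tested on simulated data; hairpin probe sets served for the background. Named are the 10 members with the largest called change in each direction with age, members called in other contrasts or else the 3 with the smallest p, measurable members not called, and up to 4 neighbours per list. No scanner files were reprocessed, and precision is limited by how many arrays each group has and by how far a signal exceeds background. Alternatives were repeated quantile normalization, median centring, a filter on dim probe sets, all probe sets, another spread prior, array weights, a covariate, fits of 1 genotype, another background, and leaving out arrays.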

Additional observations from a re-analysis of the deposited data

Results flagged for a closer look

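Of 15 series of 4 values, 1 array lay far from the others: aged MR-intact replicate 2 in miR-541, at 5.42, where the other 3 aged MR-intact arrays had 1.28, 1.43 and 1.27. About 1 in 20 such groups is singled out by chance. The same array was the highest of its group in 9 of 13 measurable members, most of them at background on it. Without it the fall of miR-541 with age, averaged over genotypes, still passed the test.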

How the results depend on the processing

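Age averaged over genotypes gave 12 members called lower (22.3% of all 717 probe sets, with such shares in brackets below). With quantile normalization repeated the count was 5 (5.72%), with the covariate 0 (0.279%), and leaving out single arrays gave 9 to 12 (18% to 23.8%). In MR-intact aortas 8 were called lower (13.7%), and the counts were 4 (2.51%), 0 (0.139%) and 5 to 11 (5.58% to 16.3%). In knockout aortas 6 were called lower (9.9%), and the counts were 3 (2.79%), 0 (0.279%) and 3 to 11 (3.35% to 17.2%). Both counts of 11 came without young knockout replicate 3, an array outside the MR-intact comparison, and with the highest share of all probe sets. The median change of the measurable members, -1.68, became -0.83 with quantile normalization repeated. With the background at the 95th percentile, aged arrays had a median of 4 members above it (1 at the 99th) and young arrays 13.5 (11), and 1 array of each age had 9. Signs turned with quantile normalization repeated for miR-409-3p (0.084), miR-494 (1.21), miR-495 (0.46) and miR-667 (1.60), with median centring for miR-495 (0.030) and miR-667 (0.04), and with the covariate for miR-411 (0.54), miR-300 (0.13), miR-134 (0.52), miR-409-3p (0.57), miR-495 (0.99) and miR-667 (0.17). Leaving out single arrays gave -0.21 to 0.17 for miR-495 and -0.13 to 0.034 for miR-667, both near background. The cause of these shifts was not tested. Knockout and interaction counts were 0 under the alternatives run. For age averaged over genotypes, miR-329, miR-382, miR-541, miR-154 and miR-485 passed under each alternative but the covariate, which is higher on each young array than on each aged one. No paired analysis was possible because the labels give each array a number of its own and no replicate number shared between groups.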
